A study of Mus musculus with 12 samples.

Results

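The 79 genes described here encode the nuclear subunits of the oxidative phosphorylation machinery, 79 of 45777 genes in the table. They were chosen by symbol (Nduf, Sdh, Uqcr, Cox4 to Cox8 and Atp5 genes), by annotation as protein coding, and by at least 10 counts in at least 3 of 12 libraries. Fold changes played no part in that rule, but the members were chosen with earlier results of these data known. The 12 libraries are mRNA from mpkCCDc11, a line of mouse cortical collecting duct cells labelled as genotype WT, in 4 groups of 3. Cells received an siRNA against TAZ, the Hippo pathway coactivator encoded by Wwtr1, and dDAVP (TAZ siRNA dDAVP), TAZ siRNA and vehicle (TAZ siRNA vehicle), a control siRNA and dDAVP (control siRNA dDAVP), or control siRNA and vehicle (control siRNA vehicle). dDAVP is a synthetic vasopressin analogue, given on the basolateral side at 1e-09 M. All groups shared transfection with DharmaFECT4, 3 days on semipermeable filters and 24 h without serum and hormones. The protocol lists dDAVP exposures of 15 min, 30 min and 24 h and does not say which applies to these libraries. Nor does it say which libraries were separate cultures, and the p-values reflect only the variation among them, which can be technical.

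Oxidative phosphorylation passes electrons from NADH through complex I, or from succinate through complex II, to ubiquinone, then through complex III and cytochrome c to complex IV, which reduces oxygen. Complexes I, III and IV pump protons across the inner mitochondrial membrane, and complex V, the ATP synthase, uses the gradient to make ATP. Most subunits are encoded in the nucleus and imported, and the rest are encoded by mitochondrial DNA. In the collecting duct this supply of ATP fuels the sodium pump of the principal cells.

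The symbol pattern matched 97 rows, of which 86 were protein coding and 11 were not, and 7 coding genes fell under the count rule. Of the 79 members, 37 belong to complex I, 4 to complex II, 8 to complex III, 13 to complex IV (with Ndufa4 and the supercomplex factor Cox7a2l) and 17 to complex V. All 79 passed the filter on low counts and were tested. Just inside the threshold, Cox7a1, the heart and muscle form of subunit 7a, had 19 to 50 counts per library, and Ndufb4b and Ndufb4c had 51 to 83 and 58 to 91. Just outside it, Ndufa4l2, a paralogue of Ndufa4, had 0 to 5 counts. The tissue-specific paralogues Cox4i2, Cox6a2, Cox6b2, Cox7b2, Cox8b and Cox8c had 0 counts in all 12 libraries, which allows at most 0.0665 CPM (counts scaled to library size) in the shallowest library, for counting error only. Detected forms at those positions were therefore Cox4i1, Cox6a1, Cox6b1, Cox7b and Cox8a. Ndufb4, Ndufb4b and Ndufb4c are close copies and several members have processed pseudogenes, so their split of reads is uncertain. On the chromosome, 15 of 79 members overlap a second tested gene, and whether counting used strand is not stated.

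Library totals ran from 45095331 to 61725339 counts, and 15932 of 45777 genes were tested. Wwtr1 was lower with TAZ siRNA by 0.54 ± 0.05 on the log2 scale with dDAVP (SE, adjusted p = 5.54e-06) and by 0.63 ± 0.05 with vehicle (adjusted p = 4e-06), in edgeR with Benjamini-Hochberg adjustment. Aqp2, the vasopressin-regulated water channel of principal cells, was at 0 to 44.8 CPM and rose with dDAVP by 7.76 ± 0.49 with TAZ siRNA (adjusted p = 1.39e-06) and by 6.66 ± 0.34 with control siRNA (adjusted p = 1.23e-07), in the same test. Epithelial markers were high (Cdh1 at 1210 to 1290 CPM, Epcam at 426 to 516 CPM). Of the other principal cell markers, Gata3 was at 165 to 236 CPM, Scnn1a at 88.9 to 141 CPM and Avpr2 at 20.9 to 47.9 CPM, Scnn1g at 4.60 to 9.57 CPM, and Scnn1b, Aqp3, Aqp4 and Elf5 at 1.2 CPM or less. Among intercalated cell markers Atp6v1b1 was at 80.6 to 105 CPM, Slc4a1 at or under 0.212 CPM, and Slc26a4 and Foxi1 at 0 in every library. Of the proximal tubule markers Lrp2 was at 124 to 189 CPM, and Slc34a1 and Slc5a2 were at or under 0.0849 CPM. Of the fibroblast markers Col1a1 was at 3.42 to 6.02 CPM, Pdgfra at or under 0.567 CPM and Col1a2 at 0, and the endothelial and leukocyte markers stayed at or under 0.436 CPM. In bulk RNA, fewer cells of a type and less RNA per cell cannot be told apart.

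Levels per transcript length differed by complex. The median over members of the mean FPKM (counts scaled by transcript length and depth, over 12 libraries) was 94.7 for complex V, 87.4 for complex IV, 48.6 for complex III, 49.2 for complex II and 30.6 for complex I. Atp5b, the catalytic beta subunit of the ATP synthase, was highest at 510 ± 23 FPKM (SD over all 12 libraries). Cox4i1, the ubiquitous form of subunit 4, followed at 233 ± 14.2 FPKM, and Atp5g2 at 212 ± 13 FPKM. The lowest of complex V were Atp5k (subunit e) at 55.4 ± 6.26 and Atp5g1 at 60.0 ± 6.28 FPKM, which do not differ beyond that spread. In complex I, Ndufb8, a membrane arm subunit, stood at 83.1 ± 4.98 FPKM. Lowest in complex I were Ndufb4c at 2.50 ± 0.281 and Ndufb4b at 2.25 ± 0.223 FPKM, and lowest in complex IV was Cox7a1 at 1.61 ± 0.410 FPKM. Within complex III the order ran from the hinge protein gene Uqcrh at 60.7 ± 5.37 FPKM to Uqcrq, a small membrane subunit, at 15.1 ± 1.84 FPKM. The low place of Uqcrq rests on a listed length of 1517 bases. Its shortest coding transcript in GENCODE M21 has 405 bases, so its rank is uncertain.

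**Figure D1:**
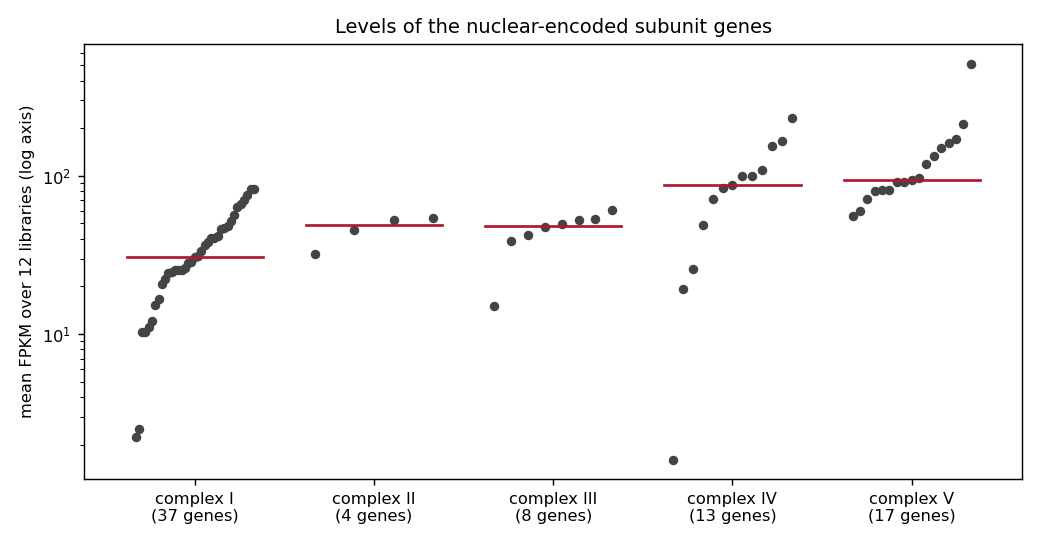
Mean FPKM over 12 libraries (log axis) of each of the 79 genes, by complex and in rising order, with the median of each complex as a line. The medians stand at 30.6 for complex I and 94.7 for complex V, and 3 genes (Ndufb4b, Ndufb4c and Cox7a1) lie far under the others.

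In complex II, which has 4 subunits, Sdha (the flavoprotein that oxidises succinate) stood at 54.3 ± 1.82, Sdhd at 52.6 ± 2.26, Sdhc at 45.8 ± 2.50 (both membrane anchors) and Sdhb (the iron-sulphur subunit) at 32.0 ± 2.21 FPKM. Atp5g1, Atp5g2 and Atp5g3 encode the same mature c subunit of the ATP synthase rotor. The level of Atp5g2 was 3.55 ± 0.244 times that of Atp5g1, and that of Atp5g3 was 2.51 ± 0.167 times it (SD over 12 libraries). Cox7a2l stood at 2.83 ± 0.313 times the level of Cox7a2, the widely expressed form of subunit 7a, and Ndufb4 at 17.0 ± 1.43 times that of its copy Ndufb4b. Summed over all 79 members, the genes took 0.515% to 0.616% of counts. For scale, COX1, the mitochondrially encoded catalytic subunit of complex IV, was at 7997 ± 350 FPKM.

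Promoter windows from RefSeq (GRCm38.p6, 250 bases before to 50 after the start, 300 in all) were at hand for 66 of the 79 members. Shown are the windows of Cox6a1 and Uqcrh, which rose with dDAVP under control siRNA, and of Ndufv3 and Sdha. Ndufv3 fell with TAZ siRNA in both treatments, and Sdha fell with it in dDAVP-treated cells. Each window is read 5′ to 3′ on the gene's strand. Capitals mark the NRF1 letters (GCGCA and GCGC with any 1 base between them) or the ETS letters CCGGAAG, on either strand. NRF1 and GABP, an ETS family factor, are known regulators of respiratory chain genes.
Cox6a1 (chr5:115348909-115349208, minus strand): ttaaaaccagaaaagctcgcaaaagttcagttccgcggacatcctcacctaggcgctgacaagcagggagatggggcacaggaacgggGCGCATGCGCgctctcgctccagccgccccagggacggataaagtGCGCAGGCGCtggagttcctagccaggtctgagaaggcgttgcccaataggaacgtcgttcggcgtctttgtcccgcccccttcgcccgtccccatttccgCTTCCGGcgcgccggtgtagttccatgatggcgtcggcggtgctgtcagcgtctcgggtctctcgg
Uqcrh (chr4:116075021-116075320, minus strand): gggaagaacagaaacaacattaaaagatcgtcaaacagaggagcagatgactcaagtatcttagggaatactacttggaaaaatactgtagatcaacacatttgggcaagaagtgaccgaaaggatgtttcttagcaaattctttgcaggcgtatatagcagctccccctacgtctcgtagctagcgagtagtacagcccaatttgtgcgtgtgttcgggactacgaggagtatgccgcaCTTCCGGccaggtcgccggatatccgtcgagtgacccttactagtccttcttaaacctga
Ndufv3 (chr17:31519865-31520164, plus strand): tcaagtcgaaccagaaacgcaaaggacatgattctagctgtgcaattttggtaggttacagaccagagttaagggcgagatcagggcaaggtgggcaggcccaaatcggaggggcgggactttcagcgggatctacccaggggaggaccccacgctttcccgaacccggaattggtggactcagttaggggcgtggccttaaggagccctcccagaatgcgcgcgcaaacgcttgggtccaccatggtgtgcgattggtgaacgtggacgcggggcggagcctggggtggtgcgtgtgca
Sdha (chr13:74350191-74350490, minus strand): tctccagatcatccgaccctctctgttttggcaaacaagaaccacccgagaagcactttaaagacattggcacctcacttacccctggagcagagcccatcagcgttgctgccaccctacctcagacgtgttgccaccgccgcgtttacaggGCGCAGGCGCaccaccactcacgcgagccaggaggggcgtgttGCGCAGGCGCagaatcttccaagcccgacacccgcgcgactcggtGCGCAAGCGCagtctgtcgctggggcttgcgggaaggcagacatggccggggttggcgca
The Cox6a1 window holds the NRF1 letters 162 and 117 bases before the start and the ETS letters 16 before it, and the Uqcrh window holds the ETS letters 10 before it. The Sdha window holds the NRF1 letters 98, 55 and 10 bases before the start, and the Ndufv3 window holds neither. The windows of Atp5c1, Ndufv1, Ndufa4 and Atp5g1, which are not shown, also hold neither. Over the 66 member windows, NRF1 letters were in 24.2%, against 9.55% of 13039 windows of tested coding genes and 4.59% of all 32817 windows. ETS letters were in 24.2% of member windows, against 17.1% and 8.86%. Another 4 motifs were searched on both strands. The YY1 letters AAGATGGC were in 13.6% of member windows, against 4.19% of windows of tested coding genes and 2.74% of all windows. In the same order, the cAMP response element TGACGTCA was in 6.06%, against 2.96% and 1.79%, and the ERR element CAAGGTCA in 6.06%, against 1.12% and 1.56%. The TEAD letters GGAATG, read by the DNA-binding partners of TAZ, were in 10.6%, against 12.4% and 14.7%. By response, ETS letters were in 8 of 23 windows (34.8%) of members that rose with dDAVP under control siRNA and in 8 of the other 43 (18.6%). NRF1 letters were in 3 and 13 (13% and 30.2%), YY1 letters in 1 and 8, and TEAD letters in 1 and 6. The cAMP response element was in 2 and 2 and the ERR element in 1 and 3. These counts are small, and no difference between the 23 and the 43 windows was tested. No motif overlapped another in the 4 printed windows.

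The first comparison asks what dDAVP did to these genes in cells with control siRNA. Of the 79 members 26 rose and 0 fell, against 9.72% and 9.48% of all tested genes that rose and fell (32.9% of the members rose). The changes were small. The 26 were 8.41% to 30.1% higher, and the median log2 fold change of all 79 was 0.17, beside -0.0012 for all tested genes. By complex, 9 of 37 rose in complex I, 1 of 4 in complex II, 3 of 8 in complex III, 7 of 13 in complex IV and 6 of 17 in complex V. All but Sdhc of the 79 had a fold change above 0, and in 39 (49.4%, against 17.3% of tested genes) every dDAVP library exceeded every vehicle library. In 0 members did every dDAVP library lie lower, against 17.9% of tested genes. Transcript length moved with this result, as set out further on. Marker levels moved in the same comparison. The 4 epithelial markers summed to 3660 to 3830 CPM with dDAVP, against 3000 to 3130 CPM with vehicle, through Krt8 and Krt18. The principal cell markers summed to 397 to 431 CPM with dDAVP, against 357 to 376 CPM with vehicle, and the proximal markers to 152 to 168 CPM, against 179 to 189 CPM, nearly all of it Lrp2. The principal cell sum includes Aqp2, which rose with dDAVP and ran from 0 to 44.8 CPM over the 12 libraries. The part of such marker shifts in the subunit results, here and in the comparisons that follow, was not tested. After a length correction 8 of 79 rose (10.1%, against 10.7% of tested genes) and 0 fell (against 8.61%), and the median was 0.05.

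In complex I, the NADH-binding core subunit gene Ndufv1 (gene ID 17995, mm10 chr19:4007499-4012755) had 142, 140 and 136 CPM with dDAVP, against 129, 120 and 125 CPM with vehicle. Every dDAVP library lay above every vehicle library. The change was 0.16 ± 0.04 (log2, SE, adjusted p = 0.00473 in edgeR with Benjamini-Hochberg adjustment, as for all adjusted p-values of single genes here). Among its partners in the NADH-oxidising module, Ndufv2, an iron-sulphur core subunit, rose by 0.19 ± 0.06 (adjusted p = 0.0261). Ndufv3, an accessory subunit, rose by 0.23 ± 0.07 (adjusted p = 0.0185). Other subunits of that module did not pass, among them Ndufa2 at 0.17 (adjusted p = 0.381) and Ndufa12 at 0.22 (adjusted p = 0.118). The other members of complex I that rose are accessory subunits. They were Ndufb10 (0.19 ± 0.05), Ndufb9 (0.22 ± 0.06), Ndufb6 (0.27 ± 0.08) and Ndufb2 (0.25 ± 0.09) of the membrane arm, with Ndufa6 (0.21 ± 0.06) and Ndufa10 (0.12 ± 0.03). Ndufb4c had the largest difference of the complex, 0.35, from few counts (adjusted p = 0.158).

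In complex II, Sdhb rose by 0.21 ± 0.06 (adjusted p = 0.0139), with 36.7, 41.8 and 42.0 CPM in the dDAVP libraries, against 34.5, 33.5 and 35.8 CPM in the vehicle libraries. The groups did not overlap, although dDAVP replicate 1 stood close to the highest vehicle library. Its partners did not pass, with differences of 0.05 for Sdha, 0.08 for Sdhd and -0.04 for Sdhc.

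In complex III, Uqcrq (gene ID 22272, mm10 chr11:53427922-53430831) had the largest change of the 26, with 25.3, 27.3 and 27.5 CPM with dDAVP, against 20.1, 19.5 and 21.9 CPM with vehicle (0.38 ± 0.07, adjusted p = 0.000646). Uqcrh (gene ID 66576, mm10 chr4:116066965-116075070) had 38.3, 40.8 and 42.0 CPM with dDAVP, against 33.4, 31.3 and 34.3 CPM with vehicle (0.29 ± 0.06, adjusted p = 0.00132). In both genes the 3 dDAVP libraries all exceeded the vehicle libraries. Uqcrc2, a core protein of the matrix domain, rose by 0.12 ± 0.04 (adjusted p = 0.0436).

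In complex IV the genes that rose encode subunits around the mitochondrially encoded core. Cox6a1 (gene ID 12861, mm10 chr5:115345623-115348958) had 103, 116 and 111 CPM with dDAVP, against 93.8, 82.7 and 98.3 CPM with vehicle (0.26 ± 0.06, adjusted p = 0.00792), with no overlap and vehicle replicate 2 lowest. Cox7b (0.28 ± 0.08), Cox8a (0.25 ± 0.07), Cox7c (0.24 ± 0.08), Ndufa4 (0.22 ± 0.07), Cox5b (0.22 ± 0.06) and Cox5a (0.19 ± 0.06) also rose. Cox7a1 showed the largest difference of all members, 0.55, at under 1 CPM and with an adjusted p of 0.192.

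In complex V, Atp5c1 (gene ID 11949, mm10 chr2:10056030-10080510), the gamma subunit of the rotating stalk, had 159, 177 and 164 CPM with dDAVP, against 151, 137 and 148 CPM with vehicle (0.20 ± 0.04, adjusted p = 0.00396). The lowest dDAVP library stood above the highest vehicle library. Atp5e (epsilon subunit) rose by 0.29 ± 0.07, Atp5l (subunit g) by 0.28 ± 0.07, Atp5g1 (c subunit) by 0.24 ± 0.07, Atp5h (subunit d) by 0.21 ± 0.05 and Atp5pb (subunit b of the peripheral stalk) by 0.14 ± 0.04. The other c subunit genes did not pass, at 0.05 for Atp5g2 and 0.11 for Atp5g3. Atp5b, the most abundant member, was at 0.11 (adjusted p = 0.081).

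Summed over each complex, complex IV stood at 855 ± 35.2 CPM with dDAVP, against 756 ± 50.0 CPM with vehicle (SD, n = 3 each). Complex I summed to 1429 ± 64.0 CPM with dDAVP, against 1304 ± 55.0 CPM with vehicle, and complex V to 2916 ± 97.7 CPM, against 2683 ± 130 CPM. Complex III summed to 396 ± 13.8 CPM with dDAVP, against 358 ± 11.7 CPM with vehicle. Complex II was at 348 ± 11.3 CPM with dDAVP, against 334 ± 12.2 CPM with vehicle, a gap of about the spread between replicates.

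The count of 26 rested on few libraries. It was 9 when the second control siRNA vehicle library was left out and 10 when the second or the third control siRNA dDAVP library was. Fewer tested genes rose in those fits too, 1059 of 16268, 1081 of 16254 and 1202 of 16279, against 1548 of 15932 with all libraries. Of the 26 calls, those of Uqcrq, Uqcrh, Atp5c1, Ndufv1, Ndufb10 and Cox6a1 held in all 12 fits that each left out 1 library, and each of the other 20 ended in at least 1 of them.

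**Figure D2:**
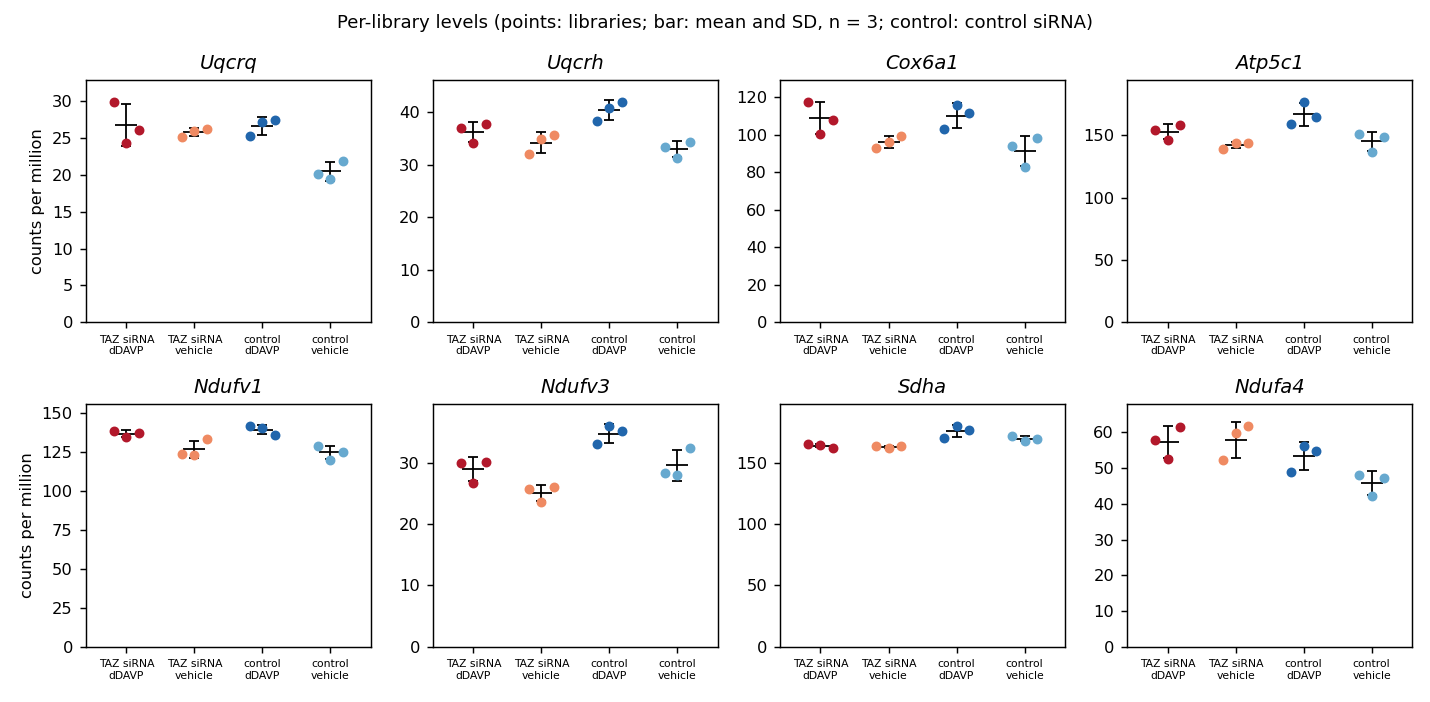
CPM in each library for 8 subunit genes, by group, with points for libraries and a bar for the mean and SD (n = 3). For Uqcrq the 3 control siRNA vehicle libraries sit at 19.5 to 21.9 CPM, under all 9 other libraries, and for Ndufv3 the TAZ siRNA groups lie under the control siRNA groups at each treatment.

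With TAZ siRNA, dDAVP raised 1 of 79 members, Atp5g1, and lowered 0, against 6.38% of tested genes that rose and 4.41% that fell. Atp5g1 had 61.6, 50.8 and 57.6 CPM with dDAVP, against 43.7, 49.1 and 49.9 CPM with vehicle (0.25 ± 0.07, adjusted p = 0.034). Its groups did not overlap, but the lowest dDAVP library stood close to the highest vehicle library. In 10 members (12.7%, against 13.7% of tested genes) all dDAVP libraries were higher, and in 0 (against 12.6%) lower. The median log2 fold change of the members was 0.07, and 64 of 79 were above 0. The epithelial markers summed to 3400 to 3550 CPM with dDAVP, against 3020 to 3240 CPM with vehicle, and the proximal markers to 124 to 135 CPM, against 138 to 153 CPM. The intercalated markers summed to 93.2 to 105 CPM with dDAVP, against 80.7 to 90 CPM with vehicle, and the principal cell sums overlapped. By complex the medians were 0.06 in complex I, 0.01 in complex II, 0.07 in complex III, 0.10 in complex IV and 0.08 in complex V. Just past the threshold stood Ndufv3 (0.21 ± 0.07, adjusted p = 0.0527), Ndufv1 (0.11 ± 0.04, adjusted p = 0.0599) and Uqcrfs1, the Rieske iron-sulphur protein (0.12 ± 0.04, adjusted p = 0.0652). Largest in size was Ndufa1, an accessory subunit of complex I, at 0.30 ± 0.13 (adjusted p = 0.163). Uqcrq, with the largest change under control siRNA, had 30.0, 24.3 and 26.1 CPM with dDAVP, against 25.2, 26.0 and 26.3 CPM with vehicle. Those groups overlapped. The count was 8 without TAZ siRNA dDAVP replicate 2, 3 without control siRNA vehicle replicate 2 or 3, 2 without TAZ siRNA vehicle replicate 3, and 0 without TAZ siRNA vehicle replicate 1 or 2 or TAZ siRNA dDAVP replicate 1 or 3. Of tested genes 827 rose in the fit with 8 calls and 680 to 903 in those with 0, against 1016 with all libraries.

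The dDAVP responses under the 2 siRNAs were then tested against each other. In edgeR 0 of 79 members differed after Benjamini-Hochberg adjustment, against 0.0126% of tested genes with a higher and 0.0188% with a lower response under TAZ siRNA. At an unadjusted p under 0.05, 0 members were higher and 6 lower (7.59%, against 4.36% of tested genes higher and 3.77% lower). That count of 6 was 16 without control siRNA dDAVP replicate 1, 11 and 2 without the first and second TAZ siRNA dDAVP libraries, 10 without TAZ siRNA vehicle replicate 1, 3 without control siRNA dDAVP replicate 2, and 13 with no filter on low counts. The share of all tested genes at that cutoff was counted in the main fit only. Whether the members moved apart from other genes in the altered fits is therefore not known. The 6 were Uqcrq (-0.32 ± 0.10, adjusted p = 0.32), Ndufs4 (-0.25 ± 0.11), Atp5l (-0.25 ± 0.09), Ndufa4 (-0.23 ± 0.10), Sdhb (-0.22 ± 0.08) and Uqcrh (-0.21 ± 0.08). DESeq2 and limma-voom also called 0 members after adjustment. The median of the members' differences was -0.09, and -0.03 after the length correction, in which 0 members were called, against 0.107% of tested genes higher and 0.144% lower. The 1 call under TAZ siRNA and the 26 under control siRNA therefore do not show that the responses differed.

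**Figure D3:**
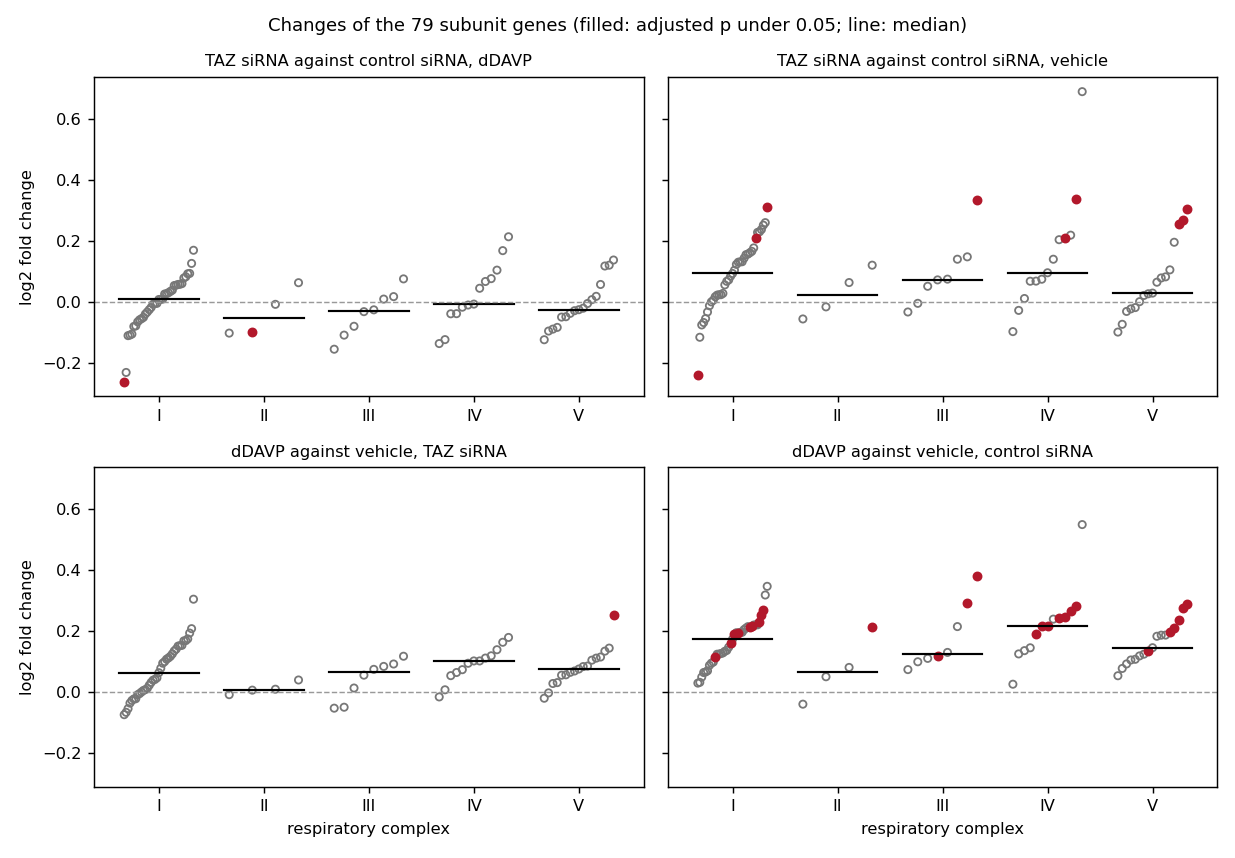
Log2 fold change of each of the 79 subunit genes by complex in the 4 comparisons, with filled points for an adjusted p under 0.05 and a line for each complex median. With dDAVP and control siRNA 26 points are filled and 78 of 79 lie above 0, while with TAZ siRNA and dDAVP 2 points are filled, both below 0.

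TAZ siRNA in vehicle-treated cells raised 8 of 79 members and lowered 1, against 3.19% of tested genes that rose and 3.11% that fell (10.1% and 1.27% of the members). The groups did not overlap in 25 members that were higher and 2 that were lower with TAZ siRNA (31.6% and 2.53%, against 11.9% and 11.5% of tested genes). The 3 control siRNA vehicle libraries serve here and in the dDAVP comparison with control siRNA, so the calls of both share that group. The proximal markers summed to 138 to 153 CPM with TAZ siRNA, against 179 to 189 CPM with control siRNA. The intercalated markers, nearly all of it Atp6v1b1, summed to 80.7 to 90 CPM with TAZ siRNA, against 90.2 to 95.9 CPM. The epithelial and principal cell sums overlapped between these groups. Of complex I, Ndufs4, an accessory subunit needed for assembly, rose by 0.31 ± 0.08 (adjusted p = 0.0297) and Ndufv2 by 0.21 ± 0.06 (adjusted p = 0.0381). Of complex III, Uqcrq was at 25.2, 26.0 and 26.3 CPM with TAZ siRNA, against 20.1, 19.5 and 21.9 CPM with control siRNA (0.33 ± 0.07, adjusted p = 0.00727). The groups did not overlap, and this call held in all 12 fits that left out 1 library. Of complex IV, Ndufa4 had 52.2, 59.8 and 61.8 CPM with TAZ siRNA, against 48.2, 42.1 and 47.2 CPM with control siRNA (0.34 ± 0.07, adjusted p = 0.0105). All TAZ siRNA libraries were higher, though the call ended without TAZ siRNA vehicle replicate 2 (adjusted p = 0.0604) or 3 (adjusted p = 0.0563). Cox6c rose by 0.21 ± 0.05 (adjusted p = 0.0253). Cox7a1 had the largest difference, 0.69 ± 0.27, and did not pass (adjusted p = 0.152). Of complex V 3 of 17 rose, Atp5j2 (subunit f, 0.27 ± 0.06), Atp5l (0.26 ± 0.07) and Atp5md (0.30 ± 0.08). They belong to the membrane sector, but others of that sector did not pass, among them the c subunit genes Atp5g1, Atp5g2 and Atp5g3. None of complex II passed, and its largest difference was 0.12 for Sdhb.

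Ndufv3 (gene ID 78330, mm10 chr17:31520115-31531326) was the member that fell. With vehicle it had 25.7, 23.7 and 26.1 CPM with TAZ siRNA, against 28.4, 28.0 and 32.5 CPM with control siRNA (-0.24 ± 0.07, adjusted p = 0.0382). With dDAVP it had 30.1, 26.7 and 30.3 CPM with TAZ siRNA, against 33.1, 36.1 and 35.3 CPM with control siRNA (-0.26 ± 0.07, adjusted p = 0.0149). In both treatments every TAZ siRNA library was under every control siRNA library. After the length correction the differences were -0.26 with both treatments (adjusted p = 0.00271 with dDAVP and 0.00377 with vehicle). The uncorrected call with vehicle ended without control siRNA vehicle replicate 1 or 3, control siRNA dDAVP replicate 3, or TAZ siRNA vehicle replicate 2 or 3, with adjusted p-values up to 0.189. With dDAVP it ended without control siRNA dDAVP replicate 2 or 3 or TAZ siRNA dDAVP replicate 2, up to 0.0682. For all 9 calls with vehicle, the count was 1 without TAZ siRNA vehicle replicate 2, 2 without TAZ siRNA vehicle replicate 3, and among the control siRNA vehicle libraries 2 without the first and 4 without the second or the third. Without TAZ siRNA vehicle replicate 2, 183 tested genes rose and 227 fell, against 508 and 496 with all libraries.

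TAZ siRNA in dDAVP-treated cells raised 0 of 79 members and lowered 2, Ndufv3 and Sdha, against 5.77% of tested genes that rose and 4.97% that fell. Sdha (gene ID 66945, mm10 chr13:74322255-74350240) had 166, 165 and 163 CPM with TAZ siRNA, against 171, 180 and 177 CPM with control siRNA. The groups did not overlap, and the change was small, at -0.10 ± 0.03 (adjusted p = 0.038). It ended without control siRNA dDAVP replicate 2 or 3 or any of the 3 TAZ siRNA dDAVP libraries, with adjusted p-values up to 0.132. The median of the members was -0.0076, and 35 of 79 were above 0. Marker sums were lower with TAZ siRNA, at 3400 to 3550 CPM for epithelium, against 3660 to 3830 CPM with control siRNA, and at 356 to 389 CPM for principal cells, against 397 to 431 CPM. The proximal sum was 124 to 135 CPM with TAZ siRNA, against 152 to 168 CPM with control siRNA. The groups did not overlap in 1 member that was higher and 7 that were lower with TAZ siRNA (1.27% and 8.86%, against 15.1% and 13.8% of tested genes). Largest in complex III was Uqcrh (-0.15 ± 0.06, adjusted p = 0.094), and Cox6c stood at 0.17 ± 0.05 (adjusted p = 0.0522). The largest in complexes II, IV and V were Sdhb (-0.10, adjusted p = 0.301), Cox7a1 (0.21, adjusted p = 0.669) and Atp5j2 (0.14, adjusted p = 0.198). The count of 2 was 4 without control siRNA dDAVP replicate 1, and 0 without control siRNA dDAVP replicate 2 or 3. It was 1 without TAZ siRNA dDAVP replicate 1 or 3, namely Ndufv3. Without TAZ siRNA dDAVP replicate 2 neither gene was called, and 1 other member was higher.

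Transcript length moved with the changes described above. The members' median transcript length was 743 bases, against 3051 bases for the 12686 other coding genes tested. With dDAVP and control siRNA, the 708 other coding genes of up to 1000 bases rose in 21.9% and fell in 0.565%, with a median of 0.12. The 53 members of that length rose in 30.2%, with a median of 0.19. Across length classes the median of other coding genes was 0.17 at up to 500 bases, 0.07 at 1001 to 1500 bases and -0.04 over 3000 bases. In each of the 6 classes that held members, the members' median was above that of the other genes, for example 0.13 against 0.03 at 1501 to 2000 bases, where the members numbered 10. With TAZ siRNA the medians of other genes ran from 0.08 in the shortest class to -0.03 over 3000 bases. There the members' median lay under that of other genes in the shortest class (0.06 against 0.08) and above it in the other 5.

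**Figure D4:**
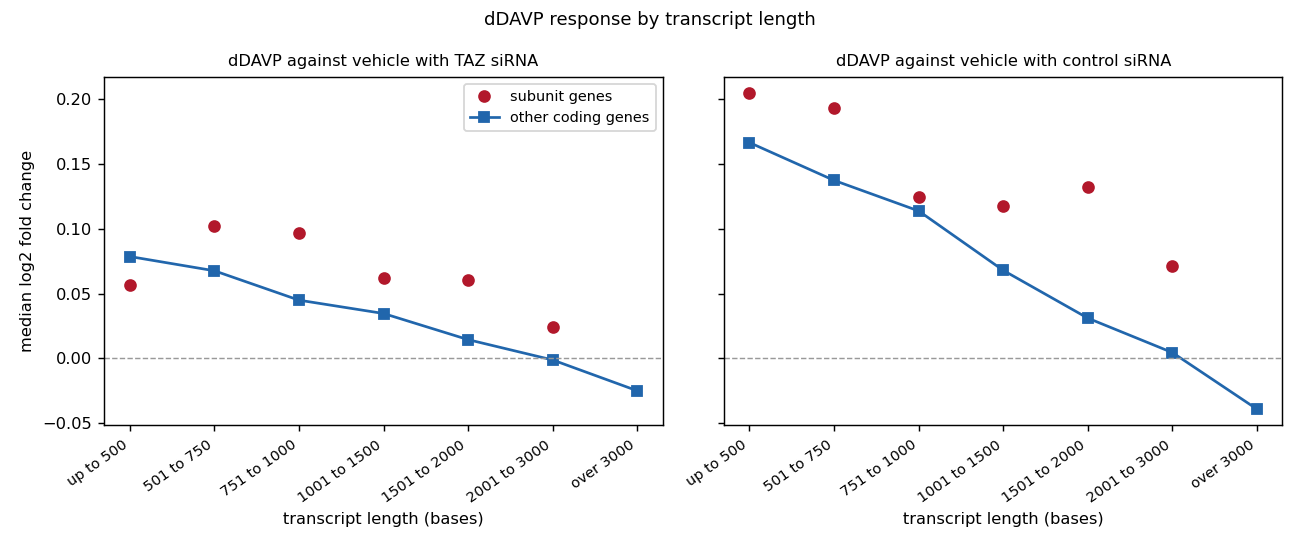
Median log2 fold change with dDAVP by transcript length class, for TAZ siRNA (left) and control siRNA (right), with points for the subunit genes and squares for other coding genes. Under control siRNA the other genes run from 0.17 in the shortest class to -0.04 over 3000 bases, and the subunit genes lie above them in all 6 classes that hold any.

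The same held library by library. Relative to the mean of 12 libraries, the median log2 level of the 79 members was 0.12, -0.05 and 0.08 in the TAZ siRNA dDAVP libraries and -0.08, 0.01 and 0.01 in the TAZ siRNA vehicle libraries. It was -0.001, 0.13 and 0.09 in the control siRNA dDAVP libraries and -0.07, -0.17 and -0.04 in the control siRNA vehicle libraries. The 708 short other genes stood at 0.09, -0.05 and 0.07 in the TAZ siRNA dDAVP libraries, at -0.08, 0.01 and 0.01 in the TAZ siRNA vehicle libraries, at 0.01, 0.12 and 0.08 in the control siRNA dDAVP libraries and at -0.05, -0.13 and -0.02 in the control siRNA vehicle libraries. The members and these short genes were thus high and low in the same libraries. Control siRNA vehicle replicate 2 was lowest in both sets and control siRNA dDAVP replicate 2 highest. Libraries of 1 group differed too, as in the TAZ siRNA dDAVP group. The part of length in the group differences was not tested beyond the correction that follows.

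**Figure D5:**
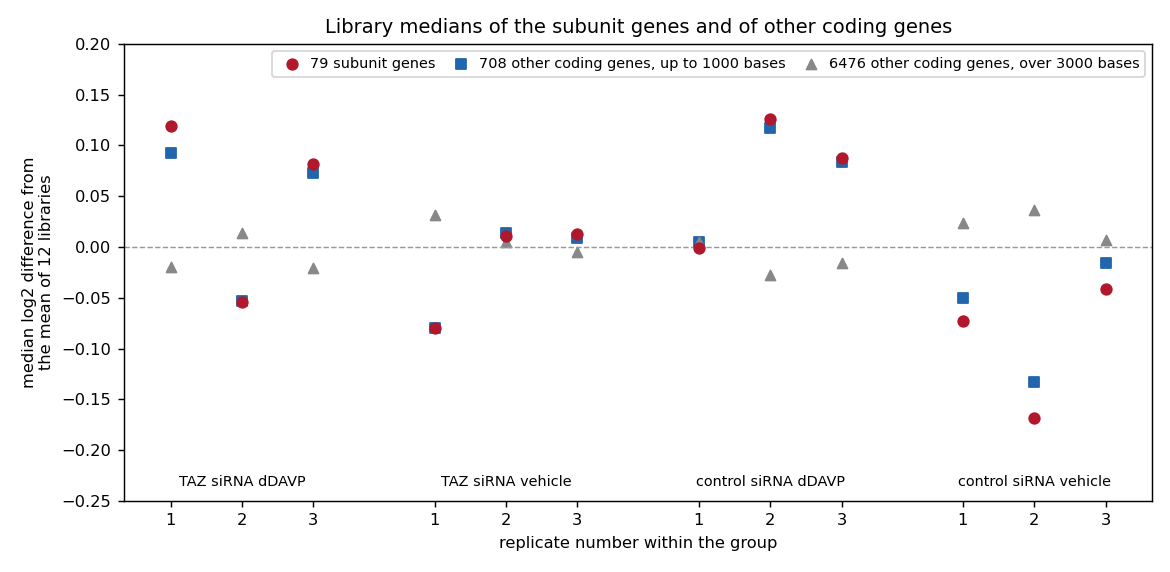
Median log2 difference of each library from the mean of 12 libraries, for the 79 subunit genes (circles), 708 other coding genes of up to 1000 bases (squares) and 6476 over 3000 bases (triangles), by group and replicate. Circles and squares move together, from -0.17 and -0.13 in control siRNA vehicle replicate 2 to 0.13 and 0.12 in control siRNA dDAVP replicate 2, and the triangles move the other way in most libraries.

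With each library corrected by a smooth curve on length, fitted on coding genes that are not members, dDAVP under control siRNA raised 8 members and lowered 0. They were Uqcrq (0.34), Ndufv3 (0.16), Ndufv2 (0.15), Uqcrh (0.13), Ndufv1 (0.12), Atp5c1 (0.12), Atp5pb (0.12) and Cox6a1 (0.11). That was 10.1% of the members, beside 10.7% of all tested genes in the same fit. Under TAZ siRNA the correction gave Atp5g1 (0.20), Ndufv3 (0.17) and Cox6a1 (0.11), 3.80% of members beside 7.85% of tested genes, and lowered 0, beside 5.17%. TAZ siRNA with vehicle then raised 7 and lowered 3 (8.86% and 3.80%, beside 4.51% and 4.49%), with Cox6b1 (-0.16) and Atp5g2 (-0.15) joining Ndufv3 below 0. TAZ siRNA with dDAVP raised 3 and lowered 4 (3.80% and 5.06%, beside 6.86% and 7.32%). Those raised were Cox6c (0.20), Atp5j2 (0.18) and Ndufa4 (0.14), and Uqcrc2 (-0.11) and Atp5c1 (-0.12) joined Ndufv3 and Sdha below 0. Uqcrq is listed with a transcript of about 1517 bases, while its shortest coding transcript in GENCODE M21 has 405. At the shorter length its change was 0.19 with dDAVP under control siRNA (adjusted p = 0.0104) and 0.27 with TAZ siRNA and vehicle (adjusted p = 0.00264).

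Other genes of the pathway were set beside the members. Of 13 mitochondrially encoded subunits, 1 rose with dDAVP under control siRNA, ND3 of complex I (0.16 ± 0.05, adjusted p = 0.0358), with a list median of 0.06. Of tested genes 9.72% rose. After the length correction 0 were called and ND3 and the list median both stood at -0.04. TAZ siRNA lowered COX1 with vehicle (-0.13 ± 0.03, adjusted p = 0.0369) and ATP8, a complex V subunit, with dDAVP (-0.23 ± 0.05, adjusted p = 0.00861), and 12 of 13 were below 0 in each. Of tested genes 3.11% fell with vehicle and 4.97% with dDAVP. After the length correction COX1 kept its call (-0.14, adjusted p = 0.00532) and ATP8 did not (-0.15, adjusted p = 0.411). The correction called 2 of the 13 lower with vehicle, COX1 among them, and 0 with dDAVP, beside 4.49% and 7.32% of tested genes. Their summed level was 41100 to 43130 CPM in TAZ siRNA dDAVP libraries, 39710 to 40660 in TAZ siRNA vehicle, 41470 to 45480 in control siRNA dDAVP and 41720 to 43280 in control siRNA vehicle libraries. Of 8 nuclear subunits and partners outside the symbol rule, 3 rose with dDAVP under control siRNA, a small count beside 9.72% of tested genes. They were Cycs, cytochrome c (0.26 ± 0.05, adjusted p = 0.00204), Ndufab1, the acyl carrier subunit (0.18 ± 0.05), and Atpif1, the ATP synthase inhibitor (0.25 ± 0.08). After the length correction Ndufab1 lost its call (0.07, adjusted p = 0.431). Cyc1, cytochrome c1 of complex III, was at 0.05 (adjusted p = 0.777).

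Of 48 assembly factors tested, 8 rose and 0 fell with dDAVP under control siRNA, where 9.72% of all tested genes rose and 9.48% fell. The list median was 0.07, and the length correction gave 5 calls and a median of 0.03, with Cox16, which serves complex IV assembly, at 0.34 ± 0.07 before it (adjusted p = 0.00221). With TAZ siRNA 2 of the 48 rose, Coa3 (0.22, adjusted p = 0.0364) and Sdhaf1 (0.37, adjusted p = 0.0413), where 6.38% of tested genes rose. Of 16 regulators of mitochondrial biogenesis, 0 rose and 2 fell with dDAVP under control siRNA. Ppargc1a, the coactivator PGC-1alpha, fell by 0.55 (SE 0.12, adjusted p = 0.00398) at a level of 0.712 FPKM, and Gabpb1, a GABP subunit, fell by 0.12 (SE 0.04, adjusted p = 0.0274). After the length correction Ppargc1a kept its call (-0.51, adjusted p = 0.00304) and Gabpb1 did not (-0.10, adjusted p = 0.0553). The correction also called 1 regulator higher there. With dDAVP under TAZ siRNA, 0 regulators were called before the correction, and 2 were higher and 0 lower after it. Uncorrected under control siRNA, Nrf1 (-0.08), Gabpa (-0.06), Tfam (0.0035), Esrra (0.16), Pprc1 (0.11) and Ppargc1b (-0.21) did not pass. Of 78 mitochondrial ribosome genes 16 rose and 1 fell, beside the same 9.72% and 9.48% of tested genes, with a median of 0.10. After the length correction 10 rose and 0 fell, with a median of 0.02. Uncorrected, Mrps6 stood at 0.56 ± 0.05 (adjusted p = 2.17e-07). Of 14 genes of the tricarboxylic acid cycle 3 rose, with Idh3b at 0.21 ± 0.03 (adjusted p = 0.000291), and of 13 genes of coenzyme Q synthesis 2 rose, with Coq2 at 0.23 ± 0.04 (adjusted p = 0.0015). These small counts stand beside the 9.72% of tested genes that rose, and the length correction left 2 calls in each list. With TAZ siRNA, dDAVP raised 2 of 14 (Ogdh and Cs), 1 of 13 (Coq10b) and 3 of 78 genes of these lists, beside 6.38% of tested genes. TAZ siRNA with vehicle raised Ogdh, Coq10b, Pdss1, Mrps10 and Mrpl33 of the lists in this paragraph and lowered 0, beside 3.19% and 3.11% of tested genes. With dDAVP it raised Polrmt (mitochondrial RNA polymerase) and Ogdh and lowered Dld, the last being shared by several dehydrogenase complexes. Of tested genes 5.77% rose and 4.97% fell there.

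Most members were measured through 1 transcript. Of the 79, 37 have at least 2 transcripts in the table and 26 have at least 2 that took over 5% of the gene's FPKM in at least 1 group. Ndufv3 is known to be spliced to a short and a long form, and the short transcript of 488 bases took 33.2% ± 1.8 of its FPKM in TAZ siRNA dDAVP libraries, 31.9% ± 3.7 in TAZ siRNA vehicle, 33.8% ± 1.1 in control siRNA dDAVP and 31.9% ± 2.9 in control siRNA vehicle libraries (SD, n = 3 each). The shares of the 4 groups overlapped. A minor Sdhb transcript took 20.2% ± 2.6 in TAZ siRNA vehicle libraries, against 7.77% ± 3.6 in control siRNA vehicle libraries. It took 7.13% ± 4.7 in TAZ siRNA dDAVP libraries, against 7.97% ± 0.73 in control siRNA dDAVP libraries. It differs from the main one by 6 bases in length (1073 and 1079), so the split is uncertain. For Atp5d, 1 transcript ran from 0 to 5032 counts between libraries, and its gene FPKM from 70.2 to 127, while gene counts ran from 98.7 to 129 CPM.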

How the data were processed

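Members and lists were chosen with earlier results of these data known. The authors deposited estimated counts per gene and transcript, written as whole numbers, and FPKM values, per the file headers. Bowtie 0.12.2 is listed without a role, per the submitters' processing notes, as are the builds mm8 and mm10. What counted the reads is not stated there. Per the labels' protocols, 2 TruSeq kits were named, of which 1 keeps strand. Coordinates are those of the authors' transcript table (mm10). Gene and transcript counts differed in 12 of 549324 values, and 24 further sample columns stayed unused.

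The counts, taken as whole numbers, were tested with edgeR 4.0.16 (R 4.3.3, robust quasi-likelihood, TMM scaling, 1 mean per group over 12 libraries, 5 contrasts), after a filter at a minimum count of 10 that left 15932 genes. Benjamini-Hochberg adjustment ran over all of them, with a threshold of 0.05. The common coefficient of biological variation was 5.11%, and replicates differed by more than sampling noise (their chi-square was 4.20 to 13.2 per degree of freedom). FPKM compared levels between genes. CPM values are TMM-scaled. Alternatives used DESeq2 1.42.0, limma 3.58.1 (voom) and other settings. Scripts were tested on simulated data. The length correction (lowess, span 0.3) was added after seeing the data, as was its repeat with the shortest GENCODE M21 coding transcript of each member. Named genes were the called members (the 25 with the smallest adjusted p where more were called), the highest and lowest per complex, the largest difference per complex and contrast, members near the count threshold, paralogues, and the leading gene per list. Ndufb2, genes just past the threshold, those of the difference at an unadjusted p, those gained in the length correction, Atp5d, Mrpl33, Pdss1 and other called list genes were named after their values were seen.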

Additional observations from a re-analysis of the deposited data

How the results depend on the processing

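No direction of a called gene turned under normalisation by size factors or by library totals, the low-count filter, DESeq2, limma-voom, the compared groups alone, or leaving out a library. With each member at its shortest coding transcript, Ndufv1 (-0.012), Uqcrc2 (-0.057) and Ndufa10 (-0.081) turned below 0 with dDAVP under control siRNA. That length is a lower bound that includes incomplete transcript models (75 of 79 members had one, 55 of them shorter than in the files). Of 38 calls of a gene in a comparison, 7 held under every setting other than the length corrections. Only 3 also held in both length corrections, Uqcrq and Cox6a1 with dDAVP under control siRNA and Uqcrq with TAZ siRNA and vehicle.

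Counts of members with dDAVP under control siRNA (26) were 8 and 7 (3 higher, 4 lower) in the length correction and its shortest-transcript form, with medians of 0.054 and 0.017, and 34 with DESeq2 and 39 with the compared groups alone. With dDAVP under TAZ siRNA (1) they were 3 and 2 in those forms, 6 with DESeq2, and 0 without the low-count filter and with the compared groups alone. For TAZ siRNA with dDAVP (2, both lower) they were 7 (3 higher, 4 lower) and 6 (5 higher, 1 lower). There DESeq2 called 5 (1 higher, 4 lower), and the compared groups alone gave 1, which was lower. Of all tested genes, dDAVP raised 1672 under control siRNA and 1137 under TAZ siRNA in DESeq2, against 1548 and 1016 in the main fit. With the compared groups alone it raised 1781 and 789. For TAZ siRNA with dDAVP, DESeq2 called 1034 tested genes higher and 1052 lower, against 919 and 792 in the main fit. The compared groups alone gave 853 and 900, and the shortest-transcript form 1092 and 1163. In that form dDAVP raised 1690 tested genes and lowered 1374 under control siRNA, and 1249 and 823 under TAZ siRNA. The median difference of the dDAVP responses was -0.0013 with the shortest transcripts. The cause was not tested.

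Without 1 library at a time, the count for dDAVP under TAZ siRNA ran from 0 to 8 and its median from 0.037 to 0.12, and for dDAVP under control siRNA they ran from 9 to 30 and from 0.13 to 0.21. For TAZ siRNA with dDAVP they ran from 0 to 4 and from -0.053 to 0.049, and for TAZ siRNA with vehicle from 1 to 11 and from 0.034 to 0.10. The difference of responses kept 0 calls, with a median of -0.12 to -0.035. Of all tested genes in these fits, 680 to 1025 rose with dDAVP under TAZ siRNA and 1059 to 1593 under control siRNA. With TAZ siRNA and dDAVP, 534 to 924 tested genes rose and 491 to 988 fell. With TAZ siRNA and vehicle, 183 to 616 rose and 227 to 819 fell.

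Replicate numbers did not pair the samples: same-numbered libraries correlated at -0.045 to 0.061 in 18 pairs, 0 of them over 0.1. A fit with the replicate number as a block called 2 members higher for dDAVP under TAZ siRNA and 24 higher under control siRNA. Of tested genes 996 rose and 667 fell there under TAZ siRNA, and 1518 and 1465 under control siRNA. For TAZ siRNA with dDAVP it called 1 member higher and 1 lower, beside 895 and 795 tested genes. For TAZ siRNA with vehicle it called 8 members higher and 1 lower, beside 479 and 489 tested genes. For the difference it called 0 members, beside 2 and 4 tested genes. Cox7c and Uqcrc2 lost their calls with dDAVP under control siRNA, and Sdha lost its call for TAZ siRNA with dDAVP (adjusted p = 0.0551).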
